A study of Mus musculus with 16 samples.

Results

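Long noncoding RNAs (lncRNAs) are long transcripts that are not thought to encode a protein. The RNAs described here are the 157 well-expressed lncRNAs of mouse liver in this series. They were chosen by level alone: a gene annotated as lncRNA with a mean of at least 5 CPM (the gene's count scaled to the same total count in each library) over all 16 libraries, leaving out Meg3 and the other imprinted RNAs Rian, Mirg and H19. Meg3 was the 1 lncRNA removed by name. The 157 came from 4513 lncRNAs and 25803 genes listed in the deposited tables. Just inside the level were Notumos at 5.043, 4933421O10Rik at 5.036 and Gm47467 at 5.029 CPM, and just outside it Gm44421 at 4.967, 4933439C10Rik at 4.875 and AW011738 at 4.846 CPM. Because the mean over all libraries chose them, levels are given below as a description, and a member that reached 5 CPM only through 1 group where it was high had to differ between groups. Examples named below are 9030616G12Rik, through fasted LKO livers, and Gm46620 and Zbtb11os1, through fasted control livers. Differences of such members from that group are given as a description. The rule did not otherwise use differences between groups.

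The livers came from male mice fed a high-fat diet (HFD) for 12 weeks. Control mice (also called wild-type by the submitters) were compared with liver knockout (LKO) mice for Cpt1a, the enzyme that commits long-chain fatty acids to entry into mitochondria for oxidation, either at the end of 16 h without food or 6 h after food was returned. Each of the 4 groups (fasted control, fasted LKO, refed control, refed LKO) had 4 libraries, and the mice of every group shared the diet and the initial fast. How the deletion was made is not given in the sources used here. The labels number the samples of a group but do not say that each is a different mouse, so p-values measure the spread between these samples.

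Cpt1a itself fell from 486 ± 83.1 (SD, n = 4) to 100 ± 17.3 CPM in fasted livers and from 456 ± 137 to 54.2 ± 16.6 CPM in refed livers, and the groups did not overlap. Library totals ran from 14721601 to 24618230 counts. Hepatocyte markers dominated every library, with a summed level of 66328 to 95393 CPM, and it was lower in fasted LKO (66328 to 76410 CPM) than in fasted control livers (80441 to 89289 CPM), without overlap, with 2 of these 8 markers called lower. Markers of macrophages summed to 215 to 822 CPM, of endothelial cells to 187 to 286 CPM and of stellate cells or fibroblasts to 190 to 344 CPM. In bulk liver, fewer cells of a type and less RNA per cell cannot be told apart.

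Nuclear lncRNAs such as Neat1, the scaffold of the nuclear bodies called paraspeckles, and Malat1, an RNA of nuclear speckles, are among the most abundant in many tissues. Another family consists of host genes of small nucleolar RNAs (snoRNAs): the introns release snoRNAs that guide chemical modification of ribosomal RNA, while the spliced exons often carry no conserved frame and are turned over by nonsense-mediated decay. Many such hosts begin with a run of pyrimidines, the 5′ terminal oligopyrimidine (5′TOP) start that also marks ribosomal protein genes and ties their translation to nutrient supply. Other lncRNAs lie opposite or beside protein-coding genes, and reads from overlapping genes can be told apart only if counting uses strand. Libraries were made from RNA captured on poly-T beads, so RNAs that lack a poly(A) tail, such as mature Malat1 and the long form of Neat1, were captured less directly.

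The sequences that matter most for reading the results below are the stretch of Gm15441 that lies opposite a coding exon, the starts of snoRNA hosts, and the microRNAs carried by Mir22hg and Dleu2. Gm15441 is the member with the largest fold change between genotypes. In GENCODE M21 its exons cover 1676 bases, of which 606 lie opposite exons of Txnip and 327 opposite Txnip coding sequence, on chromosome 3 of GRCm38. The second of 4 exons of transcript Gm15441-202 lies wholly opposite a coding exon of Txnip (chr3:96559678-96559842, minus strand), so no letter of it is set apart:
Gm15441-202 exon 2: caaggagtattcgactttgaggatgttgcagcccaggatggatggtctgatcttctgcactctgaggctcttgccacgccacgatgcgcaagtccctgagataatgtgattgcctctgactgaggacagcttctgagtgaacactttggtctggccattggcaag
The reverse complement of these 165 bases is part of the Txnip messenger RNA, and an unstranded read from this stretch fits both genes.

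Starts of 6 RNAs that hold snoRNA genes are shown with 10 bases before and 30 bases from the annotated start (RefSeq, GRCm38.p6), with the pyrimidines that run from the start in capitals. They show which hosts begin with the run that defines a 5′TOP start, for comparison with their response to refeeding.
Gas5: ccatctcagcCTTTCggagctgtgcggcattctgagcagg
Snhg8: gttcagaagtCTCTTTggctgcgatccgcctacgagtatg
Snhg1: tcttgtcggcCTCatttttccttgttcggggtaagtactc
Snhg12: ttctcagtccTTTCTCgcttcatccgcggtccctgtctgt
2410006H16Rik: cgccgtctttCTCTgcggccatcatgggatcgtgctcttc
Zfas1: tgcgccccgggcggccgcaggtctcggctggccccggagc
For Gas5, the start with the longer pyrimidine run of the 2 annotated ones is shown. A strict 5′TOP start (a C followed by at least 4 pyrimidines) was found at 9 of the 82 members with a promoter entry (10.98%), beside 3.01% of the 27025 symbols in the table, and the 9 included Gas5, Snhg8, Oip5os1 and 1110038B12Rik. Snhg1 and 2410006H16Rik began with shorter runs, Snhg12 with a run that lacked the leading C, and the annotated start of Zfas1 held none.

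The mature microRNAs inside Mir22hg and Dleu2 are shown with the seed (bases 2 to 8) in capitals (RefSeq, GRCm38.p6), because a host RNA and its microRNA share 1 precursor while these libraries measure the host only.
mmu-miR-22-5p: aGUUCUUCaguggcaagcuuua
mmu-miR-22-3p: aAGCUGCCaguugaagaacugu
mmu-miR-15a-5p: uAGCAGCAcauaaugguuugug
mmu-miR-16-5p: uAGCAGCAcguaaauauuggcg
The Dleu2 microRNAs miR-15a-5p and miR-16-5p share their seed, and the arms of miR-22 have seeds of their own.

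Promoter windows are shown for 3 members whose level differed with genotype, because each held a core or regulatory motif, in capitals (RefSeq, GRCm38.p6).
1300002E11Rik: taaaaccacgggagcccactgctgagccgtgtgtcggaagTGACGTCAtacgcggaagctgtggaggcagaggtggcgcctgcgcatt
9030616G12Rik: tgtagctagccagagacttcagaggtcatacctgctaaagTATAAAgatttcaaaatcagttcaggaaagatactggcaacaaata
Ctcflos: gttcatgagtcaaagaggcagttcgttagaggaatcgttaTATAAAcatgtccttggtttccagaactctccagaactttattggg
They lie at chr16:21794258-21794345, chr10:128971010-128971095 and chr2:173124676-173124761, all on the plus strand. TGACGTCA, the palindrome known as the cyclic AMP response element, begins 49 bases before the start of 1300002E11Rik. TATAAA begins 33 bases before the start of Ctcflos, the usual distance of a TATA box, and 147 bases before that of 9030616G12Rik. Over the 300-base windows, either strand, TGACGTCA was in 2 of 82 members (2.44%, with Gas5 the other) and in 2.03% of all symbols, TATAAA in 18.3% and 15.7%, CACGTG in 12.2% and 8.09%, and CCAAT in 42.7% and 41.1%. A DR1 element, 2 copies of AGGTCA in direct repeat with 1 base between, was in 0 of 82 members and in 0.0481% of all symbols. No promoter entry matched Gm15441, Neat1 or Norad.

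Levels differed widely among the members. Neat1 averaged 414 CPM, BC024386 326 CPM and 0610005C13Rik 226 CPM over the 16 libraries, and these 3 made up 27.03% of the summed member level. They were followed by Gm42047 (87.3 CPM), Gm15441 (86.6 CPM), 9130016M20Rik (86.0 CPM), Gm20319 (76.7 CPM), Malat1 (70.7 CPM), Norad (67.4 CPM) and AW112010 (67.2 CPM). The median member stood at 10.6 CPM, and 83 of 157 reached 10 CPM. Per kilobase of gene length the order changed: BC024386 led at 191 CPM per kb, before 0610005C13Rik at 63.0, Gm15441 at 43.03, Gm10076 at 42.3 and AW112010 at 42.2 CPM per kb. Neat1, the longest member at 21163 bases, came to 19.6 CPM per kb, above the median member at 4.22 CPM per kb. Norad, a cytoplasmic RNA that binds Pumilio proteins, stood at 13.6 and Malat1 at 10.1 CPM per kb.

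Annotation sets limits on some members. C4a, at 66.2 CPM, carries the name of a complement component, is annotated as a lncRNA here, and closely resembles the coding gene C4b (1108 to 1664 CPM as group means), so reads may have been split between them. Gm10762 is typed as protein-coding in GENCODE M21, and 21 members have an identifier but no symbol. Of the 134 members found by identifier in GENCODE M21, 41 had exon bases opposite an exon of a coding gene, 7 had exon bases shared with a coding gene on the same strand, and 87 had neither. Whether counting used strand is not given in the sources used here.

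Together the members took 0.343 to 0.374% of the counts in fasted control, 0.400 to 0.430% in fasted LKO, 0.307 to 0.363% in refed control and 0.303 to 0.323% in refed LKO libraries. The fasted LKO libraries were above all others. Without Neat1 and Gm15441 the shares were 0.313 to 0.334%, 0.310 to 0.339%, 0.285 to 0.320% and 0.274 to 0.294%, and the fasted LKO libraries overlapped the fasted controls.

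**Figure D1:**
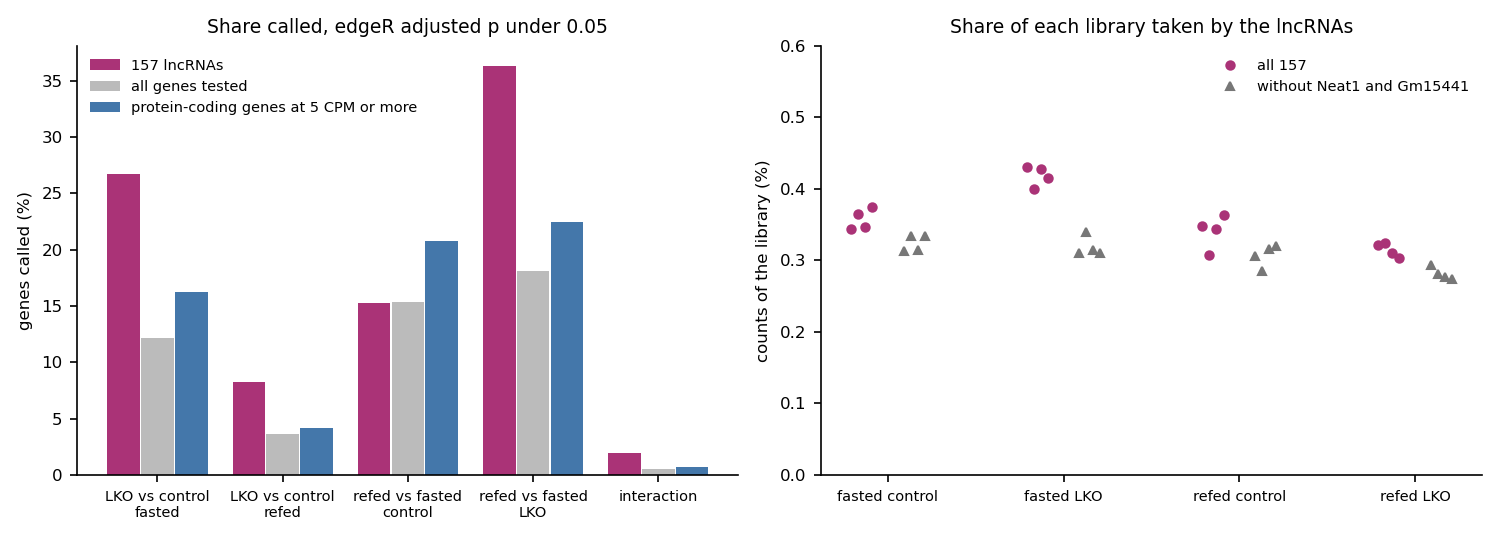
Left, the share of genes called (edgeR adjusted p under 0.05, in percent) in each comparison for the 157 lncRNAs, all 14488 genes tested and the protein-coding genes at 5 CPM or more. Right, the share of each library's counts taken by the 157 lncRNAs (circles) and by those without Neat1 and Gm15441 (triangles), 4 libraries a group; the fasted LKO circles sit at 0.400 to 0.430%, above the others, and the triangles of the fasted groups overlap.

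The first comparison asked which of these RNAs differ when the fasted liver lacks Cpt1a. Of the 157 members, 42 were called at an adjusted p under 0.05 (edgeR quasi-likelihood test, Benjamini-Hochberg over 14488 genes), or 26.8%, beside 12.2% of all genes tested and 16.2% of the 8989 protein-coding genes at the same level. Higher in LKO were 19 members (12.1%, beside 5.75% of all genes), led by Gm15441, Gm32063, 4931408D14Rik, Ctcflos, 1300002E11Rik and Neat1. Lower were 23 (14.6%, beside 6.48%), led by Gm13775, Gm15318, C4a, Gm53019, ENSMUSG00000120173 and A630031M04Rik. The median log2 fold change was -0.02 over the members and 0.02 over all genes, and its median size was 0.29 over the members, 0.21 over all genes and 0.17 over protein-coding genes at this level. The count was 27 without library S40 or without S41, 26 without S42 and 23 without S44. The spread within groups was also wider for the members than for coding genes at this level: in fasted LKO livers the median coefficient of variation was 19.95% over members and 11.6% over coding genes.

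Gm15441, described in liver as an RNA opposite the thioredoxin-interacting protein gene Txnip, read 11.5, 10.1, 9.09 and 7.1 CPM in fasted controls and 501, 128, 390 and 178 CPM in fasted LKO livers. In refed controls it read 0.957, 0, 6.44 and 7.32 CPM, and in refed LKO livers 16.1, 32.9, 34.6 and 27 CPM. Every LKO library was above every control library in both feeding states, and S45 and S47 were the lower pair of the fasted LKO group. The log2 fold change for LKO over control was 4.98 (SE 0.67, adjusted p = 0.00035) in fasted livers and 2.89 (SE 0.66, adjusted p = 0.024) in refed livers. The fasted call held in all 16 fits that left out 1 library. The refed call was lost without S48, S53, S54 or S55, at adjusted p of 0.055 to 0.077. Txnip, an inhibitor of thioredoxin, read 69.8 ± 13.3 CPM in fasted control and 132 ± 49.4 CPM in fasted LKO livers, a log2 fold change of 0.93 (SE 0.33) that was not called (adjusted p = 0.077). In refed livers Txnip stood at 58.6 ± 25 and 60.3 ± 21.8 CPM, and it fell by 1.14 on the log2 scale from fasted to refed LKO livers (adjusted p = 0.025). The part of shared reads in either value was not tested.

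Neat1 read 305, 311, 341 and 396 CPM in fasted controls and 631, 484, 780 and 844 CPM in fasted LKO livers, without overlap (log2 fold change 1.02, SE 0.22, adjusted p = 0.007). In refed livers it read 426, 220, 268 and 420 CPM in controls and 256, 399, 277 and 251 CPM in LKO, with overlapping groups. Its partners in the paraspeckle are RNA-binding proteins, and of the 17 paraspeckle protein genes listed, 2 were called higher in fasted LKO livers (Hnrnpk and Tardbp) and 0 lower, where 5.75% and 6.48% of all genes were called, with a median of 0.16 beside 0.02 for all genes. Malat1, its neighbour gene on chromosome 19, read 54.5 ± 8.97 in fasted control and 75.9 ± 14.2 CPM in fasted LKO livers, which was not called (adjusted p = 0.061). The X-linked nuclear organiser Firre stood at 20.5 ± 2.07 and 22.9 ± 3.19 CPM and imprinted Peg13 at 6.76 ± 0.728 and 7.19 ± 0.751 CPM, neither of them called.

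4 further RNAs rose in fasted LKO livers. Ctcflos, which lies opposite Ctcfl near the gluconeogenic gene Pck1, read 21.3, 20.8, 29.2 and 18 CPM in fasted controls and 66.8, 35.8, 80.5 and 40.6 CPM in fasted LKO livers (log2 fold change 1.33, SE 0.23, adjusted p = 0.0016), and 22.2 ± 4.79 and 22.6 ± 1.68 CPM in the refed groups. 4931408D14Rik read 24.8, 24.4, 18.8 and 20.7 CPM against 104, 37.8, 85.7 and 42.4 CPM (1.61, SE 0.31, adjusted p = 0.0033). Gm32063 read 7.79, 9.74, 5.87 and 7.53 CPM against 26.5, 17.8, 42.4 and 21.4 CPM (1.80, SE 0.27, adjusted p = 0.00069). LKO and control libraries were apart in each case, and in all 3 the libraries S44 and S46 were the higher pair of the fasted LKO group. 1300002E11Rik, which overlaps Map3k13 on the same strand and lies 6511 bases from Ehhadh, read 6.45, 6.71, 6.25 and 7.71 CPM against 22, 10.4, 14.4 and 13.7 CPM (1.16, SE 0.18, adjusted p = 0.00081). These 4 calls held without any 1 library. The other 13 members called higher, among them the snoRNA-bearing 1110038B12Rik (0.60) and Oip5os1 (0.30), rose by 0.22 to 0.99. The call of Oip5os1, which is also known as Cyrano, was lost without S40, S41 or S42 at adjusted p of 0.051 to 0.068.

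Among the falls in fasted LKO livers, Gm15318, opposite Tff1, read 9.37, 10.8, 11 and 10.5 CPM in fasted controls and 1.89, 4.24, 1.74 and 3.35 CPM in fasted LKO livers, without overlap (log2 fold change -1.90, SE 0.22, adjusted p = 0.00024). C4a read 72.1, 82.7, 110 and 32 CPM against 9.87, 31.8, 25.5 and 18.1 CPM, where the lowest control and the highest LKO library nearly met (-1.80, SE 0.44, adjusted p = 0.014). C4b, its coding relative, changed by -0.57 (adjusted p = 0.039). Gm53019, opposite the sialic acid hydroxylase gene Cmah, stood at 6.4 ± 2.02 and 1.88 ± 0.724 CPM (-1.76, SE 0.31, adjusted p = 0.0021). ENSMUSG00000120173, whose start faces that of Car3, a carbonic anhydrase gene, read 9.42, 12.8, 11 and 12.3 CPM against 1.35, 6.84, 2.18 and 5.9 CPM (-1.50, SE 0.33, adjusted p = 0.0083). The groups of ENSMUSG00000120173 did not overlap. For it and Gm15318 the lower LKO pair was S44 and S46, the pair that was high for Ctcflos, 4931408D14Rik and Gm32063. For C4a the lower LKO pair was S44 and S47. The other 17 members called lower fell by 0.35 to 1.25 on the log2 scale.

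A630031M04Rik and Gm13775 fell in both feeding states. A630031M04Rik, on chromosome 4 far from any coding gene, read 14.7, 14.9, 16.4 and 14.2 CPM in fasted controls and 5.33, 7.23, 5.1 and 5.71 CPM in fasted LKO livers, then 13.2, 7.75, 10.7 and 12.2 CPM in refed controls and 4.4, 1.7, 2.22 and 2.47 CPM in refed LKO livers. Its groups overlapped in neither state, and the log2 fold changes were -1.37 (SE 0.21, adjusted p = 0.0009) and -2.001 (SE 0.23, adjusted p = 0.00023), both held without any 1 library. Gm13775 starts 854 bases from Mup19, a gene of the major urinary proteins, whose near-identical copies make counts uncertain. It read 14.1, 11.5, 18.8 and 13.6 CPM against 2.59, 3.56, 6.05 and 2.48 CPM in fasted livers (-1.98, SE 0.43, adjusted p = 0.0074) and 9.83, 5.25, 8.51 and 16.8 CPM against 4.7, 4.05, 3.52 and 0.649 CPM in refed livers (-1.66, SE 0.44, adjusted p = 0.047). The refed call of Gm13775 was lost in 11 of the 16 fits without 1 library (S40 to S43, S45, S48, S50, S51 and S53 to S55), at adjusted p of 0.053 to 0.1.

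**Figure D2:**
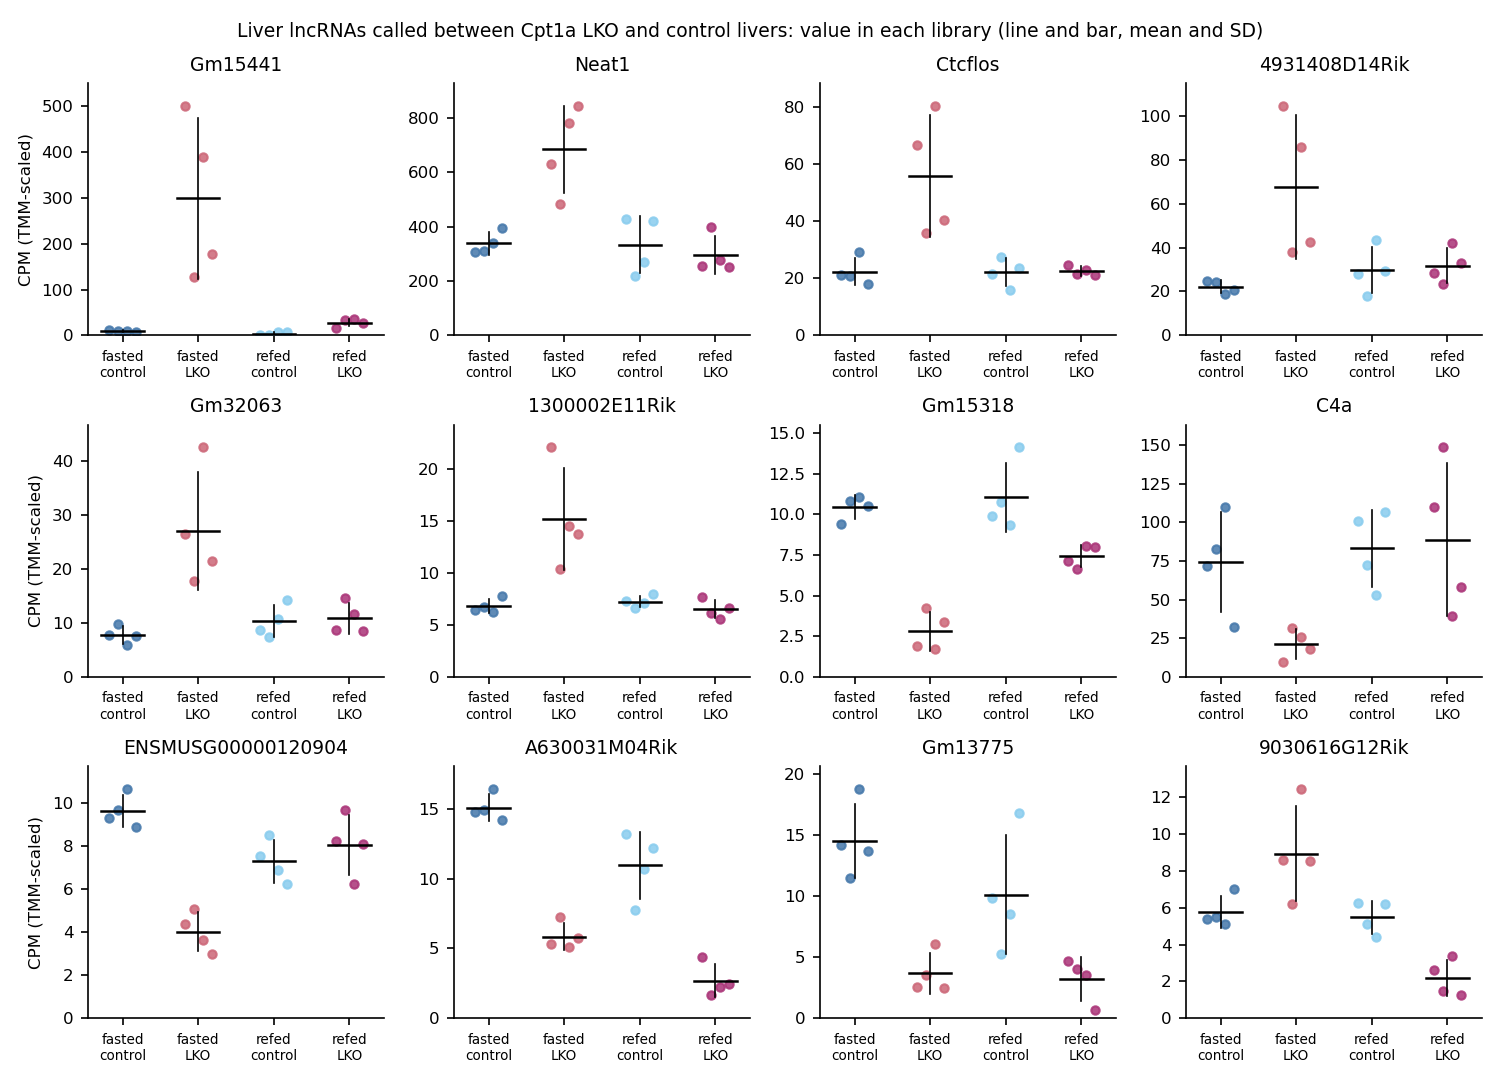
TMM-scaled CPM (vertical axes, linear from 0, 1 scale per panel) of 12 lncRNAs in each library of the 4 groups; horizontal lines are means and vertical bars SDs over 4 libraries. Neat1 reached 484 to 844 CPM in fasted LKO libraries and at most 426 CPM elsewhere, while A630031M04Rik was below the controls in both LKO groups.

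Other abundant members had smaller fold changes. BC024386 read 422, 453, 423 and 405 CPM in fasted control and 223, 377, 319 and 236 CPM in fasted LKO livers (-0.56, SE 0.13, adjusted p = 0.013), and 354 ± 14.2 and 245 ± 25.1 CPM in the refed groups (-0.53, SE 0.13, adjusted p = 0.04). Both pairs of groups were apart. The fasted call was lost when the 2 fasted groups were fitted alone (adjusted p = 0.057), and the refed call in 10 of the 16 fits without 1 library (S41, S42 and S48 to S55), at adjusted p of 0.05 to 0.12. 0610005C13Rik, opposite Bcat2, read 268 ± 16.2 and 210 ± 36.3 CPM in fasted livers (-0.35, SE 0.10, adjusted p = 0.036), with 1 LKO library inside the control range. That call was lost without S40, S41, S42, S44 or S47 at adjusted p of 0.063 to 0.11. Gm42047 was spread widely: its fasted controls read 67.8, 75.8, 44.9 and 186 CPM and its fasted LKO libraries 44.3, 139, 37.4 and 147 CPM, with no call in any comparison. Gm20319 and AW112010 were also called in none.

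The same question in refed livers gave fewer calls. Of 157 members 13 were called (8.28%, beside 3.63% of all genes and 4.13% of coding genes at 5 CPM), 2 higher (1.27%, beside 2.28%) and 11 lower (7.01%, beside 1.35%). The median log2 fold change was -0.17 over the members and -0.01 over all genes, and 68.2% of members had a negative value beside 52.2% of all genes. The count was 7 without S48, 8 without S50, 8 without S54 and 6 without S55. 8 members were called in both states, all in the same direction: 19.05% of the 42 and 61.5% of the 13, where the shares over all genes were 12.4% and 41.6%. Over all genes, 217 of the 219 called in both states had the same direction. The 2 rises were Gm15441 and Gm34667 (1.03, SE 0.27, adjusted p = 0.046), whose call was kept in 3 of 16 fits without 1 library (S44, S46 and S47) and reached an adjusted p of 0.15 without S53.

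Among the falls in refed LKO livers, 9030616G12Rik on chromosome 10 read 6.26, 5.09, 4.41 and 6.17 CPM in controls and 2.61, 1.5, 3.4 and 1.25 CPM in LKO, without overlap (-1.33, SE 0.27, adjusted p = 0.015). Gm36419 stood at 20.2 ± 2.68 and 10.3 ± 0.608 CPM (-0.97, SE 0.19, adjusted p = 0.0097). Gm11844, opposite Necab1, stood at 8.11 ± 1.82 and 4.56 ± 0.359 CPM (-0.82, SE 0.17, adjusted p = 0.014). Gm19696 stood at 18.7 ± 3.29 and 11.1 ± 1.01 CPM (-0.76, SE 0.14, adjusted p = 0.0061). These 4 calls held without any 1 library. The remaining 5 falls ran from -0.75 to -0.53.

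Mir22hg, the host of miR-22, was among these 5 and is the 1 of 2 members on the microRNA host list that was called. Its refed controls read 44.6, 45.2, 61.7 and 46.2 CPM and its refed LKO libraries 36.4, 32.9, 32.7 and 29.9 CPM, without overlap (-0.59, SE 0.13, adjusted p = 0.017). The call was lost without S50, the highest control, at an adjusted p of 0.054, and without S55 at 0.067. In fasted livers it stood at 44 ± 4.59 and 43.5 ± 6.93 CPM. Mir22hg overlaps Tlcd2 on the same strand and shares 206 exon bases with it in GENCODE M21, and Tlcd2 stood at 126 ± 27.7 and 87.5 ± 12.3 CPM in the refed groups, which was not called (-0.52, adjusted p = 0.28). In fasted livers, where Mir22hg was not called, Tlcd2 fell from 150.1 ± 14.4 to 77.1 ± 33 CPM (-0.96, adjusted p = 0.02). Dleu2, the host of miR-15a and miR-16, stood at 9.7 ± 0.618, 9.21 ± 0.986, 8.76 ± 1.44 and 9.05 ± 1.35 CPM in the 4 groups and was called in none. Of 10 genes of microRNA processing, Drosha, the nuclear microRNA processor, rose in LKO livers in both states (0.42 and 0.45, adjusted p = 0.014 and 0.022), and Ago4 rose in the fasted state (0.77, adjusted p = 0.021). The other 8 were not called in fasted livers, nor the other 9 in refed livers. Of all genes 5.75% were called higher in LKO in fasted livers and 2.28% in refed livers.

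**Figure D3:**
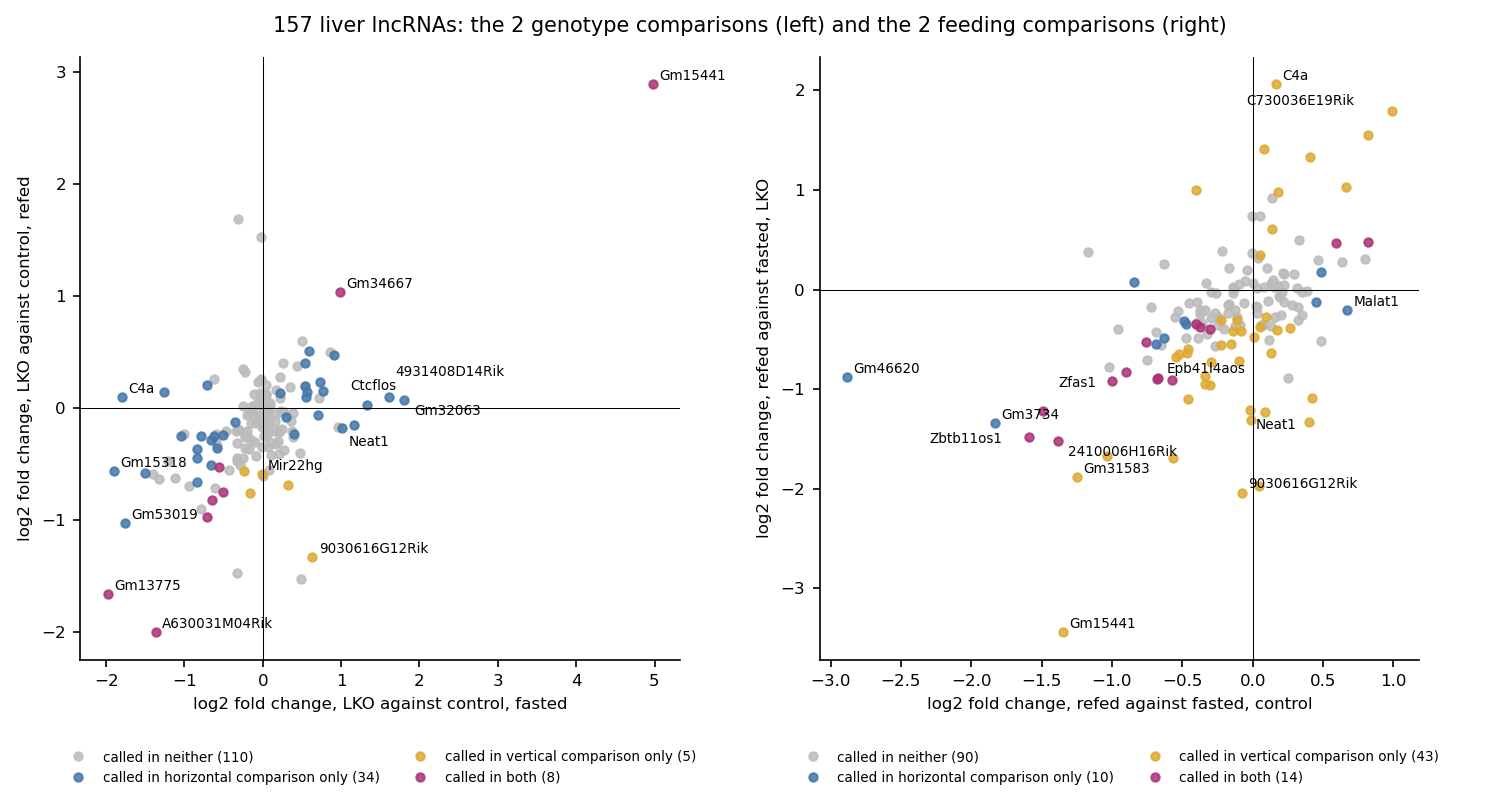
Log2 fold changes of the 157 lncRNAs, 1 point each. Left, LKO against control in fasted (horizontal) and refed livers (vertical); 8 were called in both and Gm15441 stands apart at 4.98 and 2.89. Right, refed against fasted in control (horizontal) and LKO livers (vertical), with 14 called in both.

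Refeeding was compared with fasting within each genotype. In control livers 24 of 157 members were called (15.3%), close to the 15.4% of all genes and under the 20.8% of coding genes at 5 CPM. Of these, 5 were higher after refeeding (3.18%, beside 7.79%) and 19 lower (12.1%, beside 7.65%). In LKO livers 57 were called (36.3%, beside 18.1% and 22.5%), 12 higher (7.64%, beside 9.28%) and 45 lower (28.7%, beside 8.78%). The median log2 fold change over the members was -0.10 in control and -0.25 in LKO livers, and over all genes 0.01 and -0.02. The LKO count was 37 without S52. 14 members were called in both genotypes, all in the same direction: 58.3% of the 24 and 24.6% of the 57, beside 41.8% and 35.8% over all genes. Over all genes, 918 of the 936 called in both genotypes had the same direction.

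Some snoRNA hosts fell after refeeding in both genotypes, with 0 of 9 called in the interaction test below. Of the 9 members on the list of hosts, 3 were called lower in control livers (Gas5, Zfas1 and Epb41l4aos) and 4 in LKO livers (the same 3 and Snhg12), with 0 called higher in either. Of all 157 members, 12.1% were called lower in control and 28.7% in LKO livers, and of all genes 7.65% and 8.78%. The list's median was -0.18 and -0.24, beside 0.01 and -0.02 for all genes, and 0 of 9 were called between genotypes in either state. Snhg1, Snhg6, Snhg8, Snhg17 and Snhg20 were called in none of the comparisons. Snhg20 is on the list by name, but in RefSeq it spans no snoRNA gene and 1 microRNA gene, Mir6516.

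Zfas1, which starts beside Znfx1 and holds 3 snoRNA genes in RefSeq, read 13.5, 13.5, 12.6 and 13 CPM in fasted controls and 5.49, 5.94, 7.83 and 6.99 CPM in refed controls (log2 fold change -0.997, SE 0.14, adjusted p = 0.00063). In LKO livers it read 15.2, 12.5, 13.2 and 13.1 CPM fasted and 8.13, 7.32, 5 and 8.14 CPM refed (-0.92, SE 0.14, adjusted p = 0.00044). Fasted and refed libraries were apart in both genotypes. Gas5, the growth-arrest RNA with 8 snoRNA genes, read 47.7, 40.2, 38.4 and 49 CPM fasted and 30.8, 30.8, 37.6 and 33.1 CPM refed in controls (-0.40, SE 0.10, adjusted p = 0.011). In LKO livers it stood at 51 ± 3.4 and 40.1 ± 3.47 CPM (-0.35, SE 0.10, adjusted p = 0.02), a call lost without S44, S45 or S54 at adjusted p of 0.053 to 0.06. Snhg12 stood at 7.13 ± 0.407 and 3.93 ± 0.591 CPM in LKO livers (-0.86, SE 0.13, adjusted p = 0.00042) and at 6.64 ± 0.924 and 5.25 ± 0.319 CPM in controls, where it was not called.

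Epb41l4aos, on chromosome 18, stood at 12.4 ± 0.422 and 7.71 ± 0.602 CPM in fasted and refed controls (-0.68, SE 0.15, adjusted p = 0.0071) and at 13.8 ± 2.54 and 7.47 ± 1.75 CPM in LKO livers (-0.90, SE 0.15, adjusted p = 0.00072). Its groups were apart in both genotypes.

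2410006H16Rik was not on the list of hosts but holds Snord49a, Snord49b and Snord65 in RefSeq, and had the largest fall of the snoRNA-bearing members. It read 11.6, 12.9, 10.5 and 11.8 CPM in fasted and 4.4, 3.4, 4.41 and 5.76 CPM in refed controls (-1.39, SE 0.17, adjusted p = 0.00026), and 18, 11.2, 13.2 and 12.2 CPM in fasted and 4.45, 5.49, 3.95 and 5.11 CPM in refed LKO livers (-1.52, SE 0.17, adjusted p = 4e-05). The calls of Zfas1, Epb41l4aos and 2410006H16Rik held without any 1 library. 1110038B12Rik, which holds Snord52, did not follow: it stood at 8.9 ± 1.04 and 8.16 ± 1.53 CPM in fasted and refed controls. Of the snoRNA-bearing members with a strict 5′TOP start in RefSeq, Gas5 fell. Snhg8 (12.8 ± 2.47 and 16 ± 1.88 CPM in controls) and 1110038B12Rik also have such a start and were not called after refeeding. Zfas1 fell without such a start. In all, 10 of the 106 members found in the RefSeq gene table span snoRNA genes, 33 in number.

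**Figure D4:**
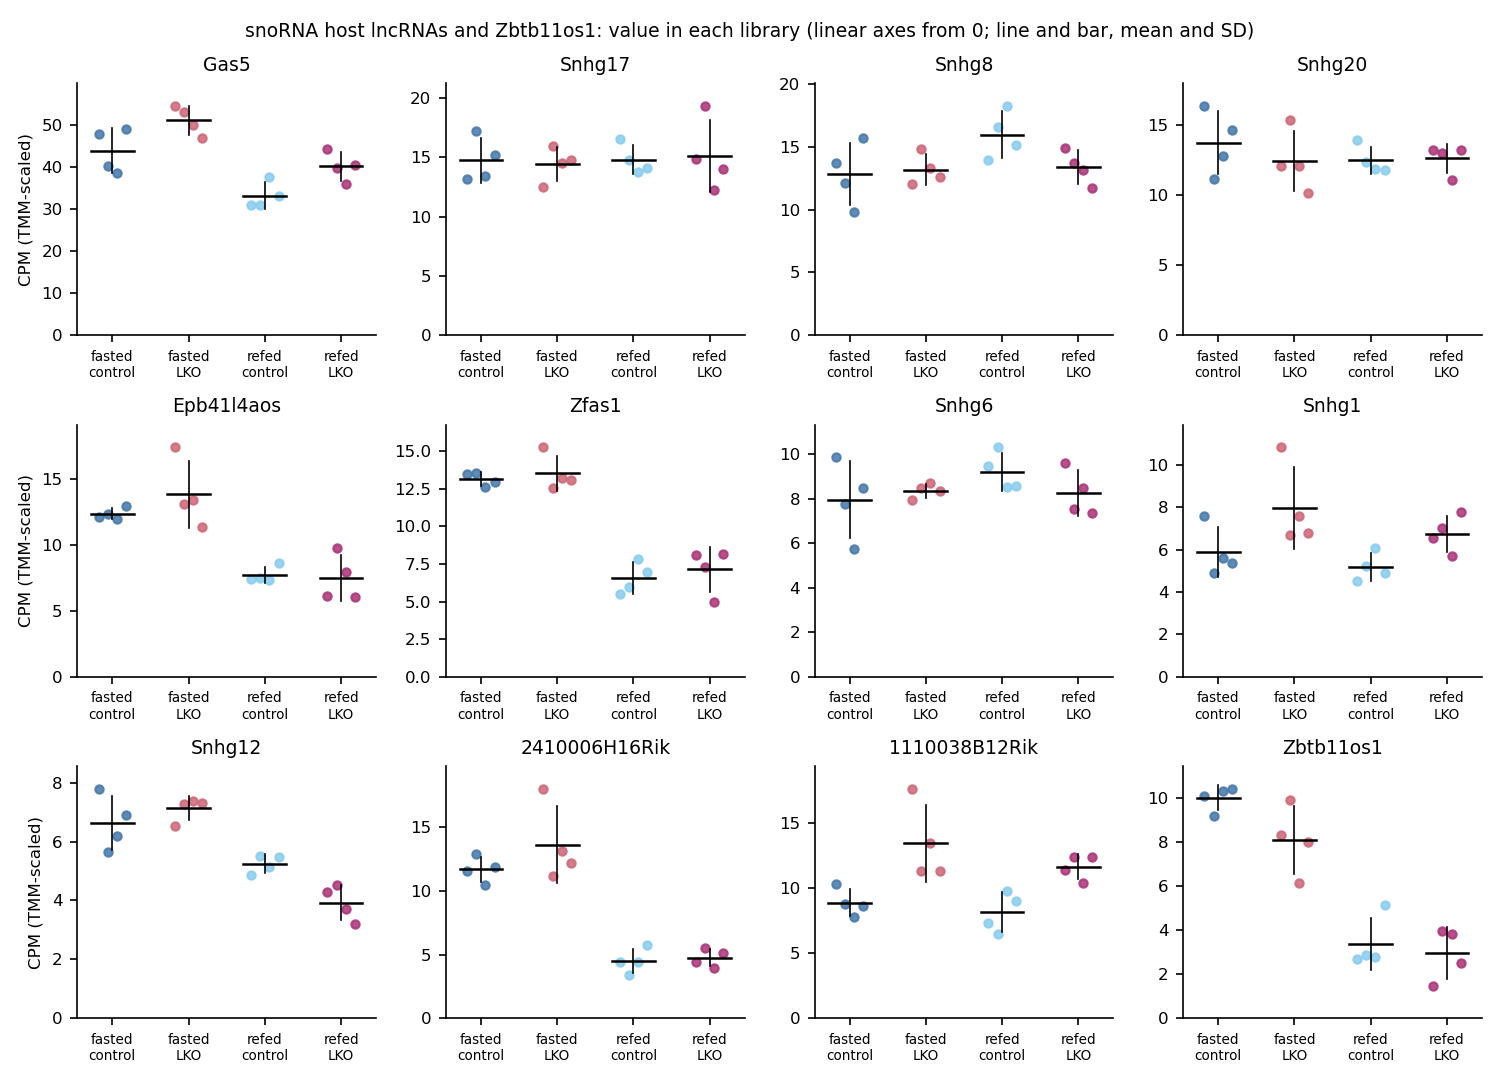
TMM-scaled CPM (vertical axes, linear from 0) of the 9 listed snoRNA hosts, of 2410006H16Rik and 1110038B12Rik, and of the antisense RNA Zbtb11os1 in each library; lines are means and bars SDs over 4 libraries. In Zfas1, Epb41l4aos, 2410006H16Rik and Zbtb11os1 the refed libraries of each genotype lie below its fasted libraries, while those of Snhg17 and Snhg20 overlap.

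Genes of proteins that act on such RNAs were counted against the shares of all genes called after refeeding (7.79% higher and 7.65% lower in controls, 9.28% and 8.78% in LKO livers). Of 8 genes of the snoRNP core, the proteins that bind snoRNAs, 2 rose after refeeding in control livers and 4 in LKO livers with 0 lower, and Nop56 rose by 0.65 and 0.70 (adjusted p = 0.00095 and 0.00024). Of 14 nonsense-mediated decay genes, 1 rose and 1 fell in each genotype, near those shares, and the endonuclease gene Smg6 was the 1 that fell in both (-0.44 and -0.62, adjusted p = 0.0078 and 0.00058). Of 15 nuclear RNA exosome genes, which degrade many nuclear RNAs, 3 rose and 1 fell in control livers, and 7 rose in LKO livers with 0 lower, led by Exosc8 (0.76, adjusted p = 0.002). Exosc8 was also higher in refed LKO than in refed control livers (0.69, adjusted p = 0.015). In fasted livers Upf2, a core decay factor, was higher in LKO (0.44, adjusted p = 0.036). Of the paraspeckle genes, the cold-inducible Cirbp fell after refeeding in both genotypes (-0.58 and -0.83, adjusted p = 0.021 and 0.0018), and 5 of 17 rose in controls and 0 in LKO livers.

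Antisense RNAs were taken by name. By the letters os or as at the end of the symbol 14 members qualified, Gas5 among them by letters alone. After refeeding 4 of these were called lower and 0 higher in controls, and 6 lower and 1 higher in LKO livers. Of all 157 members 19 were lower and 5 higher in controls, and 45 and 12 in LKO livers. Of all genes 7.65% were lower and 7.79% higher in controls, and 8.78% and 9.28% in LKO livers. The list's medians were -0.31 and -0.31, beside 0.01 and -0.02 for all genes. Zbtb11os1, which starts opposite Zbtb11, read 10.1, 9.21, 10.4 and 10.4 CPM in fasted and 2.68, 2.87, 2.78 and 5.15 CPM in refed controls (-1.59, SE 0.26, adjusted p = 0.0012). The rule admitted Zbtb11os1 through these fasted control libraries, so its fall in controls, counted above, is a description. In LKO livers Zbtb11os1 read 8.32, 9.95, 6.16 and 8.01 CPM fasted and 1.48, 3.99, 3.83 and 2.51 CPM refed (-1.48, SE 0.26, adjusted p = 0.0011). Groups were apart in both genotypes, and Zbtb11 changed by 0.26 and 0.36, called in neither. Gm12781, opposite Kctd15, fell in both genotypes (-1.49 and -1.22, adjusted p = 0.0029 and 0.007), and Kctd15 fell with it (-1.05 and -1.31, adjusted p = 0.0049 and 0.00065). The 1 rise was Brip1os (0.35 in LKO livers, adjusted p = 0.021), a call lost without S44 or S52 at adjusted p of 0.068 and 0.081. Hnf1aos1, Hnf4aos, Prox1os and Tbx3os1, which lie at genes of liver transcription factors or developmental regulators, were called in no comparison, and neither were Hectd2os, Notumos and Rab10os. Hnf4aos stood at 8.08 ± 0.684 in fasted control and 4 ± 2.22 CPM in fasted LKO livers (adjusted p = 0.055).

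The largest single fall in controls was that of Gm46620, which read 6.55, 12.1, 14.7 and 6.91 CPM in fasted and 1.66, 1.49, 0.835 and 1.56 CPM in refed controls (-2.88, SE 0.49, adjusted p = 0.0016). The rule admitted Gm46620 through these fasted control libraries, so its fall is a description. In LKO livers Gm46620 read 6.98, 6.95, 12.1 and 6.27 CPM fasted and 3.53, 0.719, 5.74 and 7.27 CPM refed, with overlap and no call. Gm3734 stood at 24.7 ± 10.7 in fasted and 6.99 ± 3.46 CPM in refed controls, with overlapping groups (-1.83, SE 0.44, adjusted p = 0.012). Of the 5 rises in controls, Malat1 went from 46.3, 50.3, 67 and 54.3 to 94.7, 85, 91 and 75.9 CPM, without overlap (0.67, SE 0.16, adjusted p = 0.011). In LKO livers Malat1 read 66.8, 63.6, 95 and 78.2 CPM fasted and 75.7, 53.4, 52.4 and 81.4 CPM refed, which overlapped and was not called. The other rises were ENSMUSG00000121137 (0.82), Gm10658 (0.59), ENSMUSG00000120144 (0.49) and 9130016M20Rik (0.45), the last of them lost without S40, S43, S50 or S51 at adjusted p of 0.071 to 0.087.

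In LKO livers the RNAs that were high in the fasted state came down after refeeding. Gm15441 fell by 3.44 on the log2 scale (SE 0.62, adjusted p = 0.0012), Neat1 by 1.21 (SE 0.22, adjusted p = 0.0013), Ctcflos by 1.31 (SE 0.23, adjusted p = 0.00094), Gm32063 by 1.33 (SE 0.26, adjusted p = 0.0023) and 1300002E11Rik by 1.23 (SE 0.18, adjusted p = 0.00029). These comparisons use the same fasted LKO libraries as the genotype comparison, so they are not independent of it. In controls none of these 5 was called; their log2 fold changes were -1.35, -0.02, -0.01, 0.40 and 0.09. The fall of 4931408D14Rik (-1.09, adjusted p = 0.02) was lost without S44, S46, S52 or S53 at adjusted p of 0.056 to 0.079. All 3 members on the list of conserved cytoplasmic or quality control RNAs fell, each by a small amount: Norad by 0.38, Chaserr by 0.47 and Oip5os1 by 0.28. Of all members 28.7% were called lower there, and of all genes 8.78%. Norad lost its call without S44, S46, S52 or S53 (adjusted p of 0.056 to 0.083), Chaserr without S44 (0.057), and Oip5os1 without S47 (0.05) or S54 (0.054). Peg13 fell by 0.54, lost without S52 (0.055).

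9030616G12Rik had the lowest adjusted p of the largest falls in LKO livers, from 8.57, 6.22, 12.4 and 8.51 to 2.61, 1.5, 3.4 and 1.25 CPM (-2.04, SE 0.27, adjusted p = 0.00013), and its groups were apart. The rule admitted this RNA through these fasted libraries, so its fall is a description. Gm2788, which overlaps Nav2 and E2f8, went from 90.5, 47.8, 75.4 and 45.9 to 12.7, 33.6, 19.6 and 15.3 CPM (-1.69, SE 0.38, adjusted p = 0.0061). ENSMUSG00000121083, opposite the thymidine phosphorylase gene Tymp, fell by 1.97 with overlapping groups (SE 0.50, adjusted p = 0.012), and Tymp fell by 2.03 (adjusted p = 0.00084). Gm31583 fell by 1.88 and Gm14097 by 1.67, both with overlapping groups. The call of Gm31583 was lost without S45, S46, S52, S54 or S55 (adjusted p of 0.061 to 0.079) and that of Gm14097 without S44, S46, S52 or S55 (0.053 to 0.1).

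Rises in LKO livers were the reverse of the fasted falls in the same libraries: C4a (2.06, SE 0.44, adjusted p = 0.0041), Gm53019 (1.55), Gm15318 (1.41) and ENSMUSG00000120173 (1.33, lost at an adjusted p of 0.055 when the 2 LKO groups were fitted alone). In controls their values were 0.16, 0.82, 0.08 and 0.40, with none called. C730036E19Rik, on the list of RNAs described in liver metabolism, read 0.598, 8.31, 2.35 and 4.16 CPM in fasted and 14.9, 12.4, 11.3 and 14.3 CPM in refed LKO livers, without overlap (1.79, SE 0.45, adjusted p = 0.011). In controls it read 6.99, 13.9, 9.22 and 10.1 CPM fasted and 18.6, 11.6, 25.2 and 24.3 CPM refed, which overlapped and was not called. The sixth of the largest rises, Gm16573 (1.03, adjusted p = 0.016), lost its call without S44 or S52 at adjusted p of 0.054 and 0.052. 9030622O22Rik, beside Foxa2, was called in no comparison.

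Whether genotype changed the response to refeeding was tested as an interaction. 3 of 157 members were called (1.91%, beside 0.538% of all genes and 0.723% of coding genes at 5 CPM), 1 higher (0.637%, beside 0.311%) and 2 lower (1.27%, beside 0.228%). Among the 3 was 9030616G12Rik, which the rule admitted through fasted LKO livers. The count rested on single libraries: it was 10 without S49 and 7 without S45, 1 without S40, S42, S46, S50, S53 or S55, and 0 without S48, where 35 members had an unadjusted p under 0.05 in edgeR; DESeq2 on all libraries called 12 and limma-voom 3. ENSMUSG00000120904, a 266-base RNA 1526 bases from the alcohol dehydrogenase gene Adh4, read 9.32, 9.68, 10.7 and 8.89 CPM in fasted control and 4.38, 5.09, 3.64 and 2.98 CPM in fasted LKO livers. It read 7.53, 8.54, 6.88 and 6.24 CPM in refed control and 8.23, 9.67, 6.24 and 8.09 CPM in refed LKO livers, so that the genotypes were apart when fasted and overlapped when refed. The interaction was 1.40 (SE 0.23, adjusted p = 0.019), lost without S48 at an adjusted p of 0.054. Adh4, on the same strand, changed with genotype by -0.46 in fasted (adjusted p = 0.031) and 0.07 in refed livers.

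1300002E11Rik gave an interaction of -1.31 (SE 0.25, adjusted p = 0.033): its refed groups read 7.28, 6.58, 7.08 and 7.93 CPM in control and 7.62, 6.14, 5.56 and 6.58 CPM in LKO, overlapping, against the fasted rise above. It was called in 5 of the 16 fits without 1 library and lost without S40 to S43, S46, S48, S50, S51 or S53 to S55, at adjusted p of 0.051 to 0.082, and with limma-voom at 0.057. 9030616G12Rik gave -1.96 (SE 0.37, adjusted p = 0.033), with a value above the controls in fasted LKO livers (8.93 ± 2.58 against 5.76 ± 0.865 CPM, not called) and below them when refed. 9030616G12Rik reached the level of 5 CPM only through fasted LKO livers, so its interaction is given as a description. It was called in 7 of 16 such fits and lost without S40, S41, S42, S44, S46, S48, S50, S53 or S55, at adjusted p of 0.051 to 0.078. The interactions of Gm15441 (-2.09, adjusted p = 0.24), Neat1 (-1.19, adjusted p = 0.072), Ctcflos (-1.30, adjusted p = 0.068), 4931408D14Rik (-1.51, adjusted p = 0.099) and Gm32063 (-1.73, adjusted p = 0.0501) were not called, so a different response of these RNAs in the 2 feeding states was not shown.

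The list of RNAs described in liver metabolism had 6 members, of which Gm15441 was called higher and 0610005C13Rik lower in fasted LKO livers, with a median of -0.30. Of the 4 nuclear RNAs on the list, Neat1 was called higher there, with a median of 0.32. Both medians stand beside 0.02 for all genes, of which 5.75% were called higher and 6.48% lower.

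Coding neighbours gave a further view. By the coordinates of the deposited tables (mm39, per the submitters' processing notes), 40 members start within 1 kb of a coding gene on the opposite strand, 38 others overlap a coding gene on the opposite strand, 10 overlap one on the same strand, 33 lie within 10 kb of one and 36 lie farther away. Across the 39 tested pairs with starts within 1 kb, the log2 fold changes for LKO in fasted livers had a Pearson r of 0.78 and a Spearman rho of 0.55. Across 35 pairs overlapping on opposite strands r was 0.63 and rho 0.46, across 30 pairs within 10 kb r was 0.47 and rho 0.54, and across 30 pairs farther apart r was 0.36 and rho 0.16. The 9 tested pairs overlapping on the same strand went the other way, with an r of -0.21 and a rho of -0.5. These are descriptions across genes of the same libraries, and overlapping pairs may share reads. After refeeding the same 39 pairs had an r of 0.21 and a rho of 0.26 in controls and 0.34 and 0.19 in LKO livers, and in refed livers the genotype comparison gave 0.62 and 0.34. Over all 143 tested pairs r was 0.47 and 0.25 for genotype in fasted and refed livers, and 0.11 and 0.32 for refeeding in control and LKO livers. Of 35 called members with a tested neighbour in the fasted genotype comparison, 7 had a neighbour that was called, 5 in the same direction, where 16.2% of coding genes at 5 CPM were called. The count was 0 of 10 for genotype in refed livers (beside 4.13%), 6 of 23 for refeeding in controls, 4 in the same direction (beside 20.8%), and 18 of 51 in LKO livers, 15 in the same direction (beside 22.5%).

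ENSMUSG00000120173 and Car3 were a pair called together in fasted livers. Car3 stood at 2549 ± 606 in fasted control and 570 ± 495 CPM in fasted LKO livers (-2.16, adjusted p = 0.0086). For Gm13775 the facing gene Mup19 stood at 36.5 ± 51.6 and 5.39 ± 6.18 CPM, a spread at which -2.75 was not called (adjusted p = 0.078). Ctcfl, opposite Ctcflos, stood at 2.9 ± 1.21 and 5 ± 1.41 CPM (0.79, not called). Some RNAs had a changed gene nearby that was not the nearest; these genes were chosen after their values were seen. Ehhadh, a peroxisomal fatty acid oxidation gene 6511 bases from 1300002E11Rik, rose by 2.97 in fasted (adjusted p = 0.00039) and 2.42 in refed LKO livers (adjusted p = 0.0038), where 1300002E11Rik had -0.15. Elovl2, which elongates polyunsaturated fatty acids and lies 15659 bases from Gm32063, rose by 1.75 and 1.15 (adjusted p = 0.00024 and 0.0082), where Gm32063 had 1.80 and 0.07. Pck1, 14779 bases from Ctcflos, was not called (0.78 and 0.20).

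**Figure D5:**
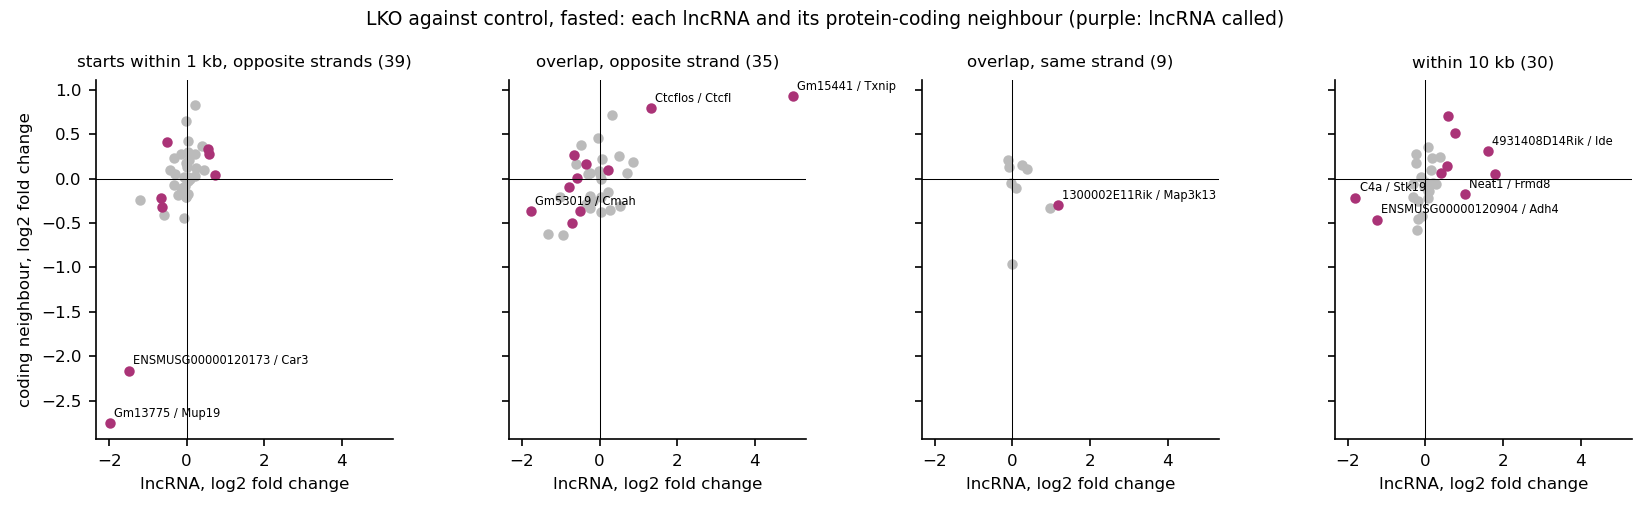
Log2 fold change of LKO over control in fasted livers for each lncRNA (horizontal) and its coding neighbour (vertical), by arrangement, with the number of pairs tested above each panel; purple points are called lncRNAs. Gm13775 with Mup19 and ENSMUSG00000120173 with Car3 lie at the lower left of the first panel, and Gm15441 at 4.98 has Txnip at 0.93.

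Marker sums of other cell types mostly overlapped between genotypes. The sum of 5 plasma cell markers did not in fasted livers: it was 211 to 216 CPM in fasted LKO and 241 to 280.5 CPM in fasted control livers, with 1 marker called higher and 2 lower. Of these 5, Tnfrsf17 and Mzb1 averaged under 1 CPM and 3 were tested, so the sum rested on Jchain, Xbp1 and Derl3. How much of it came from plasma cells was not tested. Macrophage markers ran from 215 to 822 CPM in refed control and from 226 to 334 CPM in refed LKO livers, cholangiocyte markers from 33.4 to 80.8 CPM in fasted LKO and from 33.4 to 56.3 CPM in fasted control livers, and adipocyte markers from 10.6 to 27.8 CPM in refed LKO and from 15.2 to 62.0 CPM in refed control livers. The adipocyte genes Adipoq, Plin1 and Lep averaged under 1 CPM, as did the T-cell genes Cd3e, Cd3g and Cd8a. Between genotypes in fasted livers, 1 stellate or fibroblast marker was called higher, 1 red blood cell and 1 adipocyte marker were called lower, and 0 macrophage, endothelial, lymphocyte or cholangiocyte markers were called. In refed livers 2 of 5 proliferation markers, 1 endothelial and 1 plasma cell marker were called higher in LKO, and 1 plasma cell marker lower. The part of cell makeup in the member results was not tested. In all, 86 of the 157 members were called in at least 1 comparison and 71 in none. The same count was not made over all genes, so these numbers have no share to stand beside.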

How the data were processed

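Counts per gene and library were read from 4 deposited tables of the authors' pairwise comparisons, each with 8 libraries, so that every library appears in 2 tables; the counts shared by tables were identical. Per the submitters' processing notes reads were aligned with HISAT2 2.0.5 and the build is mm39. The counting tool, its use of strand and the annotation release are not given in the sources used here. The other 64 per-library columns were not used. The deposited log2 fold changes and adjusted p-values of the authors (p-value columns of their own comparisons) were used only for a check: by the authors' deposited table, 44 and 22 members were under 0.05 for genotype in fasted and refed livers and 45 and 51 for refeeding in control and LKO livers, of which 38, 11, 24 and 48 were called here. Gene length, as deposited by the authors, gave CPM per kilobase.

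Members were chosen on CPM over the raw library totals. Values in the text are CPM on totals scaled by TMM factors (0.941 to 1.07). edgeR 4.0.16 (R 4.3.3) tested the 14488 genes passing filterByExpr in 1 quasi-likelihood fit of 4 groups; adjusted p is Benjamini-Hochberg over all of these, called under 0.05. All 157 members passed that filter and 156 had at least 10 counts in every library; Gm15441 had 0 in 1. The script was tested on simulated data. DESeq2 1.42.0 and limma 3.58.1 were alternatives. Genes listed in some tables only (3148) were set to 0 elsewhere. The members, the role lists and the protein lists were chosen with earlier results of these data known. Named were all members on a role list, the 10 highest by CPM and 5 by CPM per kilobase, the 6 largest called rises and falls per comparison, interaction calls, overlapping or facing neighbours of these, and the 2 largest called changes per comparison on the protein lists, and the 3 members and 3 lncRNAs nearest the level; 1110038B12Rik, C4b, Smg6, the paraspeckle genes Hnrnpk and Tardbp, and the genes named as nearby but not overlapping or facing were added after their values were seen.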

Additional observations from a re-analysis of the deposited data

Results flagged for a closer look

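Single libraries stood far from the other 3 of their group in 5 of the 104 groups examined for the 26 members whose libraries were read one by one; such gaps arise by chance in about 1 in 20 groups. Mir22hg read 61.7 CPM in refed control library S50, beside 44.6 to 46.2 CPM in the others. Epb41l4aos read 8.61 CPM and Zbtb11os1 5.15 CPM in refed control library S51, beside 7.36 to 7.48 CPM and 2.68 to 2.87 CPM. Gm46620 read 12.1 CPM in fasted LKO library S46, beside 6.27 to 6.98 CPM. Gm42047 read 159 CPM in refed LKO library S52, beside 104 to 108 CPM.

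The effect of genotype was called as different between fasted and refed livers, by the interaction test, for 1300002E11Rik (-1.31), 9030616G12Rik (-1.96) and ENSMUSG00000120904 (1.40). Of the 16 fits without 1 library, these calls were lost in 11, 9 and 1, in that order. The value of 9030616G12Rik is a description, because the rule admitted that RNA through fasted LKO livers.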

How the results depend on the processing

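Leaving out each library in turn gave 23 to 49 members called for genotype in fasted livers, 6 to 15 in refed livers, 17 to 30 for refeeding in controls, 37 to 60 in LKO livers and 0 to 10 for the interaction. The 0 came without S48 (edgeR), where 35 members had an unadjusted p under 0.05. The interaction gave 12 calls with DESeq2, 5 without any low-count filter and 8 when only genes averaging 5 CPM were tested, beside 3 as reported; the cause was not tested. The other alternatives of scaling, tool and filter were within 1.5 times for every comparison, RLE and upper quartile factors included. Fitting the 2 groups of a comparison alone gave 31, 11, 35 and 48 in the order above. For named members, 1724 alternative values kept direction and call, 136 lost the call, and 0 reversed. The number of members would be 360 at 2 CPM, 83 at 10 CPM and 91 at 5 CPM in each library. No paired analysis was possible because the library columns carry no replicate number. With 4 libraries a group, a difference that was not called is not shown to be absent.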
